A study of Mus musculus with 6 samples.

Results

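Genes of hepatocyte plasma proteins were followed in hepatic progenitor cells of the mouse, namely Alb, Afp, Ttr, Apoa1, Apoe, Apob, Trf, Hpx and Hp. Every probe whose gene symbol in the deposited table was 1 of these names was taken, which gave 11 of the 25697 probes and covered 8 of the 9 genes. Apob matched no probe by symbol and was not analysed here. The RNA came from C57BL/6 control livers carrying loxP-flanked alleles, with 3 Met fl/fl samples and 3 Egfr fl/fl samples, each on 1 Illumina bead array. Met encodes the receptor for hepatocyte growth factor and Egfr the receptor for epidermal growth factor. A floxed allele is left whole until a recombinase acts on it, and the labels name no recombinase, so both groups are controls that differ in which gene is floxed. The labels give no age, sex, passage or treatment. Nor do they say how the replicates of a genotype arose. A p-value here sets the difference between the groups against the scatter within them, and that scatter may be technical. If each genotype stands for 1 animal, culture or slide, that source and the genotype cannot be told apart.

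The liver secretes most of the proteins of blood plasma. Albumin carries fatty acids, bilirubin and many hormones, and alpha-fetoprotein, encoded by the neighbouring and related gene Afp, takes its place in the fetus. Transthyretin carries thyroxine and the retinol-binding protein. Apolipoproteins A1, E and B build the lipoproteins that move cholesterol and triglyceride. Transferrin carries iron, while haptoglobin and hemopexin bind free haemoglobin and free haem, and both rise in the acute-phase response. Hepatic progenitor cells, which can form hepatocytes and bile duct cells, are usually described as making Afp and some albumin and as carrying biliary keratins. In RNA from whole samples, fewer cells that express a gene and less RNA per cell cannot be told apart.

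Among the tested plasma protein genes, Trf, Hpx and Hp were called lower in Met fl/fl progenitor cells, and Ttr, Apoe and Apoa1 were not. Trf, Hpx and Hp were lower in Met fl/fl cells on every one of their 6 probes, by 5.12-fold to 13-fold. Probes called at least 4-fold lower made up 2.19% of all tested probes, and those at least 2-fold lower 8.04%. Apoa1 was detected in Met fl/fl cells and on no Egfr fl/fl array. It thus entered the test through Met fl/fl alone and could only come out higher there. It is the 1 call of higher signal in the counts below. Ttr was bright in both groups and Apoe was dim in both, and neither passed the test. Alb was not detected on any array, and Afp was detected on 1 Egfr fl/fl array only. Of the 11 probes 9 were bright enough to test, 6 of them were lower and 1 was higher in Met fl/fl (limma, adjusted p under 0.05), where 39.8% of the 11578 tested probes passed in either direction, 18.2% as lower and 21.6% as higher. Of the 6 probes detected on all 6 arrays, 5 were lower in Met fl/fl and 0 were higher. The share over all probes was not computed at this filter. With a detection p under 0.01 on all 6 arrays, 1516 of 8416 probes were lower and 1917 higher. Of the member probes 4 were then lower and 0 higher. The 3 Hp probes and the 2 Hpx probes each report on 1 gene, so these counts are not counts of independent events. By the brightest tested probe of each gene, 3 of 6 tested genes were lower and 1 was higher, against 18.6% and 22.8% of 8549 genes, or 41.4% in either direction.

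Averaged over probes, the signal was 275 to 398 units per Met fl/fl array and 241 to 321 units per Egfr fl/fl array. Signals are linear, with the background subtracted by the authors, so they can fall below 0. A probe is called detected on an array where its detection p, the share of negative control probes that are brighter, was under 0.05. Between 43.8% and 45.3% of probes were detected on an array. The lowest detected signal lay between 10.4 and 14.1 units. In Met fl/fl 1 negative control was far brighter than the rest, so a detection p of 0.00125 there means that only this control was brighter. Within its genotype the third Egfr fl/fl array was the least like the others (Pearson r over tested probes 0.967 and 0.971, against 0.991 between replicates 1 and 2). Among the marker lists, 17 of 23 hepatocyte genes other than plasma proteins were detected on no array and 2 on all 6. Of 22 biliary and progenitor genes 6 were detected on no array, the keratin gene Krt23 included, and 11 on all 6. Among the latter were the biliary keratin Krt19 and the simple epithelial keratins Krt8 and Krt18.

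The upstream regions of 4 members are printed because they belong to genes that behaved differently here: Hpx was lower in Met fl/fl, Apoa1 was higher, and Alb and Afp were at or near background. Each line gives the 250 bases before the transcript start from the RefSeq promoter table, build GRCm38.p6, read 5′ to 3′ on the strand of the gene.
Hpx (chr7:105600117-105600366, strand -): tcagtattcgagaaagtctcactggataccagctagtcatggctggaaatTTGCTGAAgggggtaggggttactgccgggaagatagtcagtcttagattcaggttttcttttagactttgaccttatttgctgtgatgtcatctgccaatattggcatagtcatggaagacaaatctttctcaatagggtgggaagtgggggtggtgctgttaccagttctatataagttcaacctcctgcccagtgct
Apoa1 (chr9:46228380-46228629, strand +): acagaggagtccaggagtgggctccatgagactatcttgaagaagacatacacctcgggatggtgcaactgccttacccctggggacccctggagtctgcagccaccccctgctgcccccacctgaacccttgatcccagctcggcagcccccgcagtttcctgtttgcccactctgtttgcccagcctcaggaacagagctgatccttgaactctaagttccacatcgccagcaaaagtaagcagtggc
Alb (chr5:90460620-90460869, strand +): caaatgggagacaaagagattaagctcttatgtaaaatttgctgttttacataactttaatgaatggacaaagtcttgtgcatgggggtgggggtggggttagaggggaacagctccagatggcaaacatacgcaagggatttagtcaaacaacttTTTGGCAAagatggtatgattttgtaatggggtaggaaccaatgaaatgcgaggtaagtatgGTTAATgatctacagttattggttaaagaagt
Afp (chr5:90490464-90490713, strand +): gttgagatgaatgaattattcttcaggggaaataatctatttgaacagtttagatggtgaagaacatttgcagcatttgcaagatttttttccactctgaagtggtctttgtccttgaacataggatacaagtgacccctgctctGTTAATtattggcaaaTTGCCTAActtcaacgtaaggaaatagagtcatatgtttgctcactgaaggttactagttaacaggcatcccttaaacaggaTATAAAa
Capitals mark exact matches, on either strand, to any of 6 motifs: the full HNF1 site (GTTAAT, any base, then ATTAA), its half-site GTTAAT, the C/EBP motif TTGCNNAA, the HNF4 motif CAAAGTCCA, the STAT3 motif TTCNNNGAA and the TATA box TATAAA. The half-site lies within the full HNF1 site, and the motifs were chosen with the sequences in view. Alb held the HNF1 half-site 32 bases before the start and a C/EBP match 94 bases before it. That match lies on the other strand and is printed above, on the strand of the gene, as TTTGGCAA. Afp held the half-site at 105 bases, a C/EBP match (TTGCCTAA) at 89 bases and a TATA box at 7 bases before the start. Hpx held 1 C/EBP match (TTGCTGAA) at 200 bases, and Apoa1 held none of the 6. Among 32851 upstream regions of the same length in the table, 6.43% held the HNF1 half-site, 0.0609% the full site, 9.56% the C/EBP motif, 0.384% the HNF4 motif, 7.02% the STAT3 motif and 12.4% the TATA box. A match is a run of letters and not a shown binding site. The table matched 6 of the 9 members by symbol; Ttr, Trf and Hp are named only.

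The carriers of small molecules were either bright in both groups or at background. The single Alb probe, ILMN_2651160, read 0.949, -5.83 and 7.29 units across Met fl/fl, against -6.39, 0.924 and -6.76 units across Egfr fl/fl. Its detection p was never below 0.113, so Alb was undetected on 6 of 6 arrays and the groups overlapped around 0. Afp, by probe ILMN_1245472, read 9.99, -6.65 and 3.43 units in Met fl/fl and 11.4, 9.13 and 5.85 units in Egfr fl/fl. Only Egfr fl/fl replicate 1 passed the detection limit, at a detection p of 0.0489, and the groups overlapped. Both probes were too dim to test, so no difference between the genotypes was measurable for albumin or alpha-fetoprotein with these probes. A dim probe does not show that a transcript is absent.

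Ttr was by contrast among the bright probes on every array, with signals above those of 97.0% to 98.6% of all probes. Probe ILMN_2443330 read 5136, 2789.7 and 2990.1 units in Met fl/fl, against 2366, 2280.3 and 2344 units in Egfr fl/fl. As deposited, all 3 Met fl/fl signals lay above all 3 Egfr fl/fl signals, with Met fl/fl replicate 1, the array with the highest mean signal, at the top. After quantile normalization, which gives every array the same distribution, the groups overlapped. The normalized log2 values then averaged 11.64 ± 0.22 for Met fl/fl arrays and 11.31 ± 0.26 for Egfr fl/fl arrays (SD, n = 3 each), with Egfr fl/fl replicate 3 lowest at 11.01. The log2 difference of 0.32 ± 0.16 (SE) had a 95% interval from -0.037 to 0.69 and did not pass the test (limma adjusted p = 0.139).

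**Figure D1:**
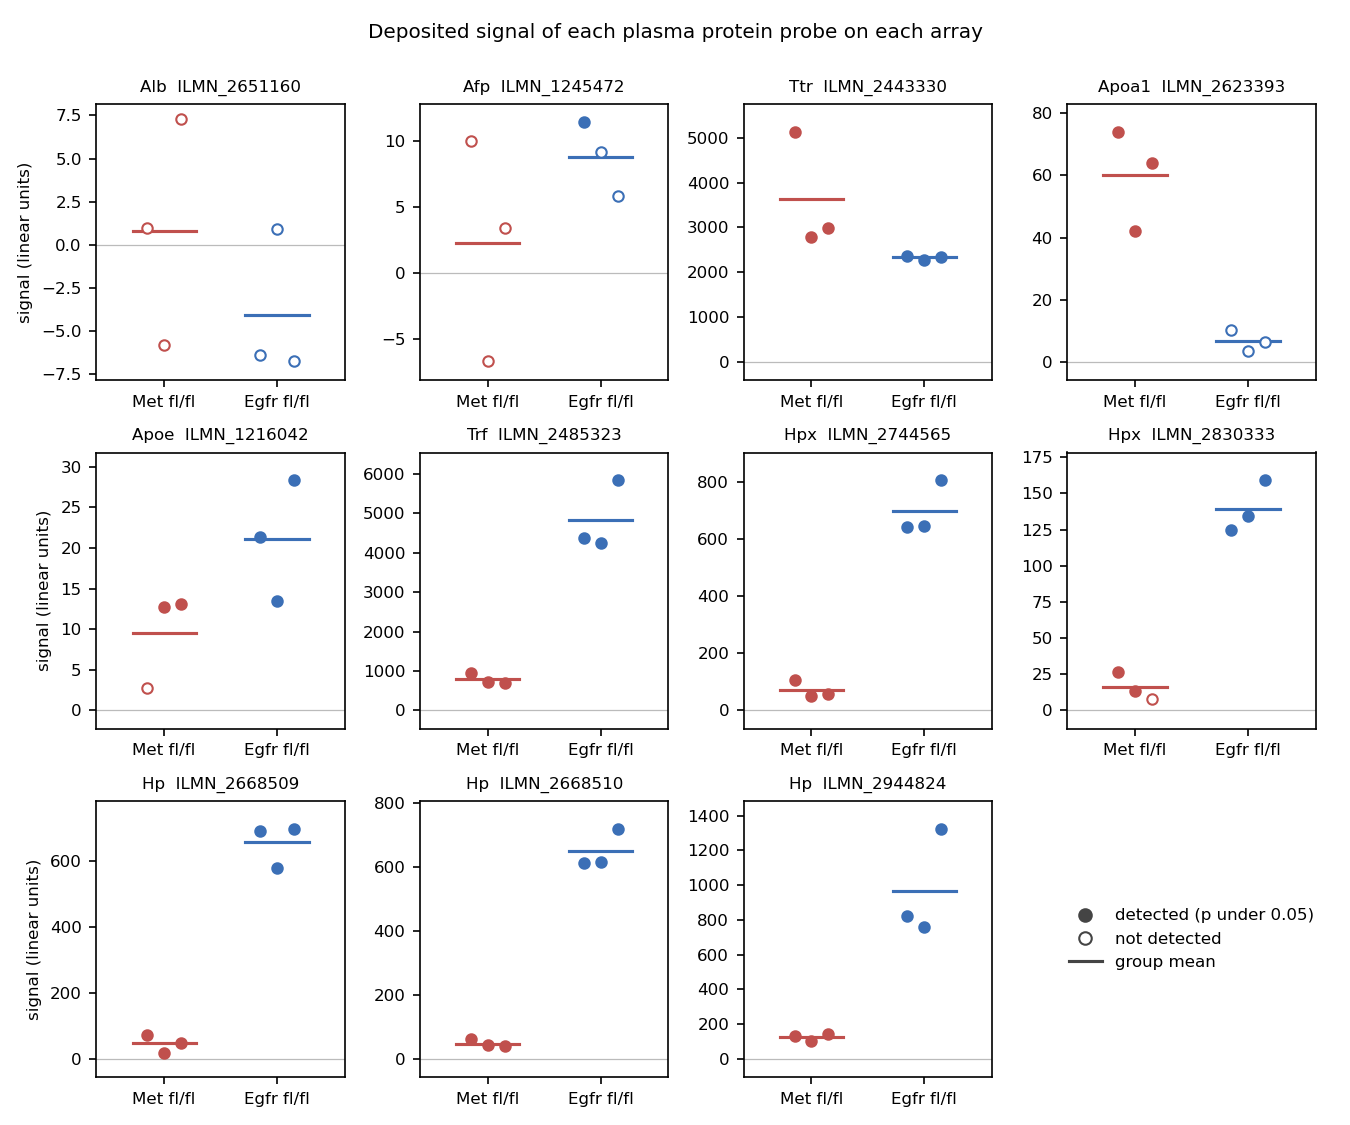
Deposited signal in linear units of each of the 11 plasma protein probes, with 1 point per array, Met fl/fl in red on the left and Egfr fl/fl in blue on the right; filled points were detected (detection p under 0.05), open points were not, and bars are group means. The 6 probes of Trf, Hpx and Hp lie far lower on all 3 Met fl/fl arrays, Apoa1 is open on all 3 Egfr fl/fl arrays, and Alb is open throughout.

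Among the apolipoproteins only Apoa1, the main protein of high-density lipoprotein, passed. Probe ILMN_2623393 read 74.1, 42.3 and 64.1 units in Met fl/fl, against 10.3, 3.54 and 6.54 units in Egfr fl/fl. All 3 Met fl/fl arrays detected it and no Egfr fl/fl array did, with detection p of 0.0727, 0.247 and 0.158 on Egfr fl/fl replicates 1, 2 and 3, and the groups did not overlap, as for 50.1% of tested probes. Because 1 side is not above background, the difference is a bound. Set against the higher of its own value and the lowest detected value on each Egfr fl/fl array, Met fl/fl was at least 2.37-fold higher (fitted log2 difference 1.40 ± 0.19 SE, limma adjusted p = 0.000304). The probe entered the test through its Met fl/fl arrays alone, so it could only come out higher there. Its level stayed modest, above 67.2% to 71.3% of all probes on the Met fl/fl arrays.

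Apoe, which directs remnant lipoproteins to their receptors and is also made by macrophages and other cells, stayed near the detection limit. Probe ILMN_1216042 read 2.77, 12.7 and 13.1 units in Met fl/fl, detected on replicates 2 and 3, against 21.4, 13.5 and 28.4 units in Egfr fl/fl, detected on all 3. The deposited signals of Met fl/fl were all below those of Egfr fl/fl, by a narrow margin, and the normalized values overlapped. The log2 difference was -0.32 ± 0.18 (SE), with a 95% interval from -0.71 to 0.074 (limma adjusted p = 0.178). Neither interval shows that Ttr or Apoe was at equal levels in the genotypes.

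The iron carrier Trf was lower in Met fl/fl and well detected on all 6 arrays. Probe ILMN_2485323 read 941, 735 and 706 units in Met fl/fl, against 4378, 4253 and 5843 units in Egfr fl/fl. The groups lay far apart, and replicates within a group were close once normalized, at 9.50 ± 0.065 for Met fl/fl arrays and 12.35 ± 0.042 for Egfr fl/fl arrays (log2, SD, n = 3 each). With Met fl/fl 7.22-fold lower, the log2 difference of Trf was -2.85 ± 0.11 (SE, limma adjusted p = 6.45e-08), and 1.27% of tested probes differed by as much or more in either direction. Its signal exceeded that of 91.1% to 91.7% of probes on the Met fl/fl arrays and of 99.0% to 99.1% on the Egfr fl/fl arrays.

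Hpx, the haem scavenger, was lower in Met fl/fl on both of its probes. Probe ILMN_2744565 read 107, 50.7 and 58.5 units in Met fl/fl, against 642, 648 and 807 units in Egfr fl/fl. Its log2 difference was -3.29 ± 0.17 (SE), or 9.78-fold lower, with detection on all 6 arrays (limma adjusted p = 5.72e-07). Probe ILMN_2830333 was dimmer and read 26.5, 13.8 and 7.60 units in Met fl/fl, against 125, 134 and 159 units in Egfr fl/fl. It was detected on 2 of 3 Met fl/fl arrays and gave -2.36 ± 0.20 (limma adjusted p = 1.29e-05), 5.12-fold lower. The groups did not overlap on either probe, as for 50.1% of tested probes.

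Hp, which binds haemoglobin and spares its iron, had 3 probes and all were lower in Met fl/fl. Probe ILMN_2944824 read 130.2, 102 and 145 units in Met fl/fl, against 820.0, 759 and 1325 units in Egfr fl/fl. Probe ILMN_2668509 read 73.8, 19.5 and 48.1 units in Met fl/fl, against 692, 580.2 and 698 units in Egfr fl/fl. Probe ILMN_2668510 read 62.0, 43.1 and 39.7 units in Met fl/fl, against 613, 616 and 721 units in Egfr fl/fl. Each probe was detected on all 6 arrays and separated the groups, as did 50.1% of tested probes on the log2 scale. The highest Met fl/fl signal was 145 units and the lowest Egfr fl/fl signal 580.2 units over the 3 probes. The log2 differences were -3.02 ± 0.19, -3.70 ± 0.26 and -3.58 ± 0.17 (SE) for the 3 probes in that order, or 8.09-fold, 13-fold and 12-fold lower in Met fl/fl (limma adjusted p = 2.20e-06, 3.68e-06 and 2.10e-07). Differences at least as large were seen in 1.06%, 0.553% and 0.587% of tested probes. The spread was widest for ILMN_2668509 in Met fl/fl, where the SD of the log2 values was 0.51 and replicate 2 read lowest. On ILMN_2944824 the third Egfr fl/fl array gave the top reading. The positions of the Hp and Hpx probes along their transcripts were not used here.

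**Figure D2:**
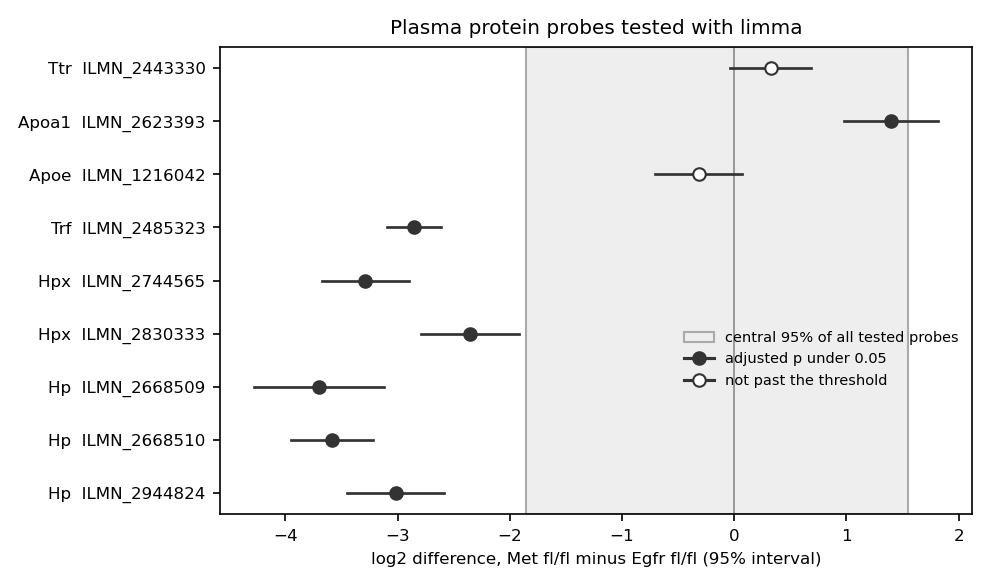
Log2 difference, Met fl/fl minus Egfr fl/fl, of the 9 tested plasma protein probes with 95% intervals; filled points passed an adjusted p of 0.05, open points did not, and the grey band holds the central 95% of all 11578 tested probes, from -1.86 to 1.55. The 6 probes of Trf, Hpx and Hp lie to the left of the band, Apoa1 lies near its right edge, and Ttr and Apoe lie close to 0.

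The median log2 difference was -2.85 over the 9 tested probes and 0.056 over all tested probes. Over the 6 tested genes, each by its brightest probe, it was -1.58, against 0.068 over 8549 genes. The extra probes of Hp and Hpx weigh on the median over probes, while each gene counts once in the median over genes. Of the tested genes 3 were lower, 2 had no call, and 1 was higher, Apoa1, which entered the test through Met fl/fl alone. With the tested probes of a gene averaged, Hp differed by -3.43 and Hpx by -2.82 on the log2 scale.

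Profiles over the 6 arrays that lay nearest to each member, after centring each gene on its own mean, were sought among 8549 genes, with the root mean square difference in log2 units as the measure. Trf was nearest to the muscle and cytoskeletal LIM protein gene Fhl1 (0.070) and to Iqcb1, a gene of the primary cilium (0.084). Hpx was nearest to Gramd4 (0.12) and to Cavin2, a component of caveolae (0.13), and Hp to Rassf4 (0.16) and the brain-type creatine kinase gene Ckb (0.16). Ttr lay nearest to Dbi, the acyl-CoA-binding protein gene (0.033), and Tram1, a component of protein translocation into the endoplasmic reticulum (0.043). Apoa1 lay nearest to the glucosylceramidase gene Gba2 (0.11) and Keg1 (0.12), and Apoe to Rer1 (0.026) and Atad3a (0.067). Each of these is a description over 6 arrays. On the Met fl/fl arrays Gramd4 lay at 4.65 to 4.77 and Rassf4 at 4.62 to 4.78 log2 units. The undetected Alb probe lay at 4.49 to 4.82 there. Keg1 lay at 4.52 to 4.91 on the Egfr fl/fl arrays. The profiles of these 3 genes therefore rest in part on values near background. No member was among the nearest genes of another.

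A list of 73 other plasma proteins of hepatocytes was described in the same way. By symbol 70 had a probe, 34 were detected on no array, and 24 were tested. Of these 11 were lower and 4 higher in Met fl/fl, against 18.6% and 22.8% of all tested genes. The median log2 difference was -0.34. Complement C3 gave a log2 difference of -3.30 ± 0.13 (SE, limma adjusted p = 9.63e-08), 9.84-fold lower in Met fl/fl, with detection on all 6 arrays. Serpina1b, an alpha-1-antitrypsin gene, went undetected throughout Met fl/fl, at least 7.89-fold lower there, its other tested probe giving a fitted log2 difference of -2.38. Serpina1 genes are near-identical copies, so a probe may report on several of them. In the other direction Proc, the precursor of the anticoagulant protein C, was higher in Met fl/fl with a fitted log2 difference of 2.63 ± 0.21 (SE), and 1.31 on its other probe. On the Egfr fl/fl side it was measured above background on 1 of 3 arrays. Its cofactor Pros1 was 2.53-fold higher. Of the 11 lowered genes 5 were detected on no Met fl/fl array, Serpina1a, Serpina1b, Serpina1c, Serpina1d and Serpind1, named here after their values were seen; they entered the test through Egfr fl/fl alone.

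Genes that act on the members were described too. Of 14 tested genes of apolipoprotein assembly, remodelling and uptake, 2 were higher and 3 lower in Met fl/fl (median -0.070). Over all tested genes the shares were 22.8% higher and 18.6% lower. Lpl, the lipoprotein lipase, went undetected throughout Met fl/fl, at least 7.06-fold lower, and entered the test through Egfr fl/fl alone. The receptor gene Vldlr was 2.62-fold lower. Sar1b, needed for export of large lipoproteins from the endoplasmic reticulum, was 1.40-fold higher, with a log2 difference of 0.63 on its other probe, and did not pass with median scaling (limma adjusted p = 0.144). The count of higher genes was 1 without Met fl/fl replicate 2, Met fl/fl replicate 3 or Egfr fl/fl replicate 2, and 0 with median scaling.

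Of 16 tested genes of iron and haem handling, 5 were higher and 2 lower in Met fl/fl (median 0.098). Over all tested genes 22.8% were higher and 18.6% lower. Beside the lower Trf, the transferrin receptor gene Tfrc gave a log2 difference of -0.98 ± 0.19 (SE, limma adjusted p = 0.00256), 1.97-fold lower in Met fl/fl, with -0.77 on its other probe. Slc40a1, which encodes the iron exporter ferroportin, was 1.80-fold higher, and Blvrb, a biliverdin reductase, 3.39-fold higher. Tfr2, another transferrin receptor gene and named after its values were seen, was among the higher genes but was detected on no Egfr fl/fl array, so it entered through Met fl/fl alone. Fech, the last enzyme of haem synthesis, was 2.11-fold lower by its brightest probe, while its others gave log2 differences of -0.79 and 0.062. Fech missed the threshold without Met fl/fl replicate 1 (adjusted p = 0.0593) or replicate 2 (0.0506), which left 1 gene lower. The count of higher genes was 3 without Met fl/fl replicate 2, Met fl/fl replicate 3 or Egfr fl/fl replicate 1. It was also 3 with median scaling or with no filter.

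Of 22 tested transcription factors known to act on plasma protein genes, 9 were higher and 4 lower in Met fl/fl (median 0.30), or 6 and 2 with median scaling. Shares over all tested genes were 22.8% higher and 18.6% lower in the main setting. The pioneer factor gene Foxa1 was higher by 2.93 ± 0.24 on the log2 scale (limma adjusted p = 1.15e-05), with detection on 2 of 3 Egfr fl/fl arrays. Dbp, which binds the albumin promoter, had a fitted log2 difference of 2.00 ± 0.22 (SE), of which the Egfr fl/fl side was measured above background on 1 of 3 arrays. Prox1 was higher too and was detected on no Egfr fl/fl array, so it entered the test through Met fl/fl alone; it is named after its values were seen. Hnf4a, a central regulator of hepatocyte genes named after its values were seen, was 2.69-fold higher and detected on all 6 arrays. The nuclear factor I genes Nfib and Nfix were 2.28-fold and 2.23-fold lower. The count of lower genes was 2 without Met fl/fl replicate 1, Met fl/fl replicate 2, Egfr fl/fl replicate 1 or Egfr fl/fl replicate 2. It was also 2 with an offset of 50 or with no filter. With a detection p under 0.01 on all 6 arrays, 5 were higher and 4 lower.

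**Figure D3:**
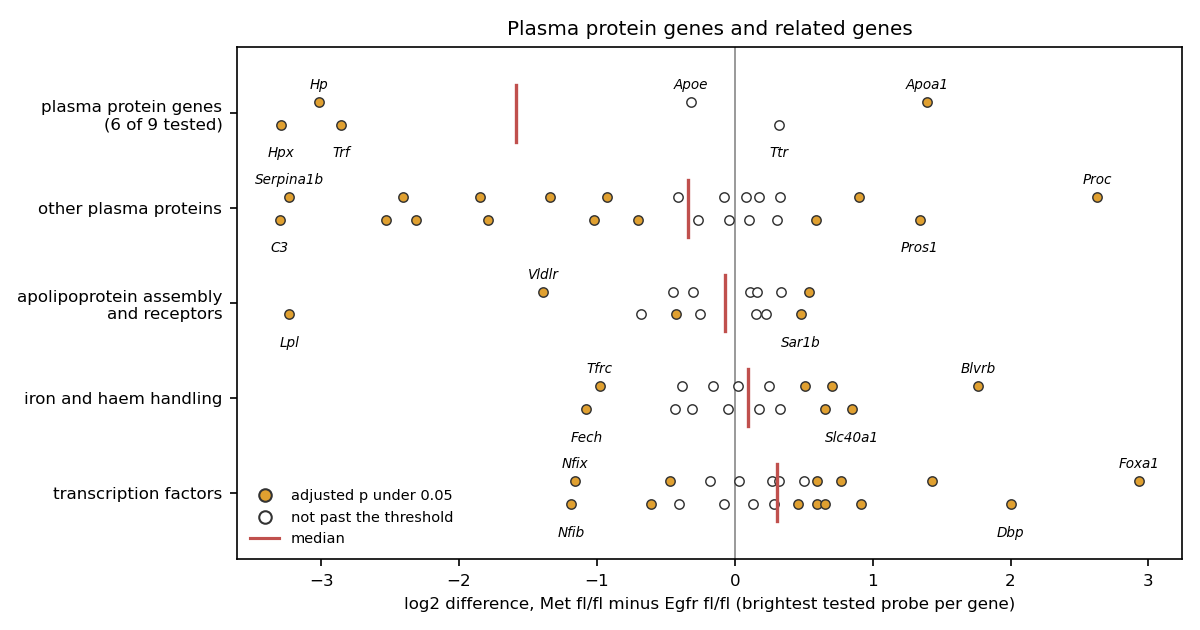
Log2 difference, Met fl/fl minus Egfr fl/fl, by the brightest tested probe of each gene, for the plasma protein genes in the top row and 4 lists of related genes below; filled points passed an adjusted p of 0.05, red bars are medians, and the genes with a name beside their point are given in the text. In the top row Hpx, Hp and Trf lie near -3, and Apoa1, which entered the test through Met fl/fl alone, lies above 1. The transcription factors have the highest median of the 5 rows at 0.30.

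Markers of other liver cells moved between the groups too, and their part in the differences of the plasma protein genes was not tested. The summed signal of 30 probes for 23 hepatocyte markers other than plasma proteins was 846 to 1308 units on Met fl/fl arrays and 363 to 417 on Egfr fl/fl arrays. Fah alone made up 848 to 1265 units in Met fl/fl and 322 to 401 in Egfr fl/fl, and the other genes together gave -1.44 to 43.4 units in Met fl/fl and 15.4 to 41.0 in Egfr fl/fl. Of the 3 tested, the tyrosine breakdown gene Fah was higher and the urea cycle gene Ass1 lower in Met fl/fl, and Cps1, Arg1 and Pck1 were undetected. For 22 biliary and progenitor markers the sum was 27804 to 44379 units in Met fl/fl and 40154 to 52649 in Egfr fl/fl. Of 14 tested genes 1 was higher and 8 lower in Met fl/fl, against 22.8% and 18.6% of all tested genes. Cldn6 was the higher one, at least 28-fold, and was detected in Met fl/fl alone, while Sox9 was 3.68-fold and Cd44 3.49-fold lower. Of the 8 lower genes Igf2, named after its values were seen, was detected in Egfr fl/fl alone. The number called higher was 2 without Egfr fl/fl replicate 1 or Egfr fl/fl replicate 3, and 2 with array weights or a replicate block. With a detection p under 0.01 on all 6 arrays it was 0.

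Macrophages make Apoe, and 14 of 18 of their markers were detected on no array, Ptprc, Adgre1, Lyz2 and Clec4f among them. The summed signal of their markers was 1174 to 1563 units in Met fl/fl and 312 to 594 in Egfr fl/fl, with 1 tested gene higher (Cd14) and 1 lower (Csf1r, detected in Egfr fl/fl alone). Cd14 by itself gave 1178 to 1565 units in Met fl/fl and 274 to 534 in Egfr fl/fl, and the sum of the others lay between -32.6 and -1.49 units in Met fl/fl and between -36.8 and 60.7 in Egfr fl/fl. The sum is therefore a value for Cd14 and not for the class. Without Met fl/fl replicate 2 or Met fl/fl replicate 3, 0 macrophage markers were called lower by limma, the adjusted p of Csf1r being 0.0614 and 0.0704. Of 17 stellate cell and fibroblast markers 11 were detected on no array, Col1a1 and Lrat included, and the sum was 1029.9 to 1897 units in Met fl/fl and 3767 to 4761 in Egfr fl/fl. Vim made up most of that sum, with 1030.5 to 1845 units in Met fl/fl and 3141 to 4209 in Egfr fl/fl, and was 2.96-fold lower in Met fl/fl. The other tested genes, Acta2 and Dcn, were detected on no Met fl/fl array by the probe used and so could only come out lower; Dcn is named after its values were seen. Acta2 was at least 17.7-fold lower by its brightest probe, whose other probes gave fitted log2 differences from -1.11 to -0.51. For endothelium 4 of 13 markers were tested and 1 was called, Flt1, 4.78-fold lower in Met fl/fl. The sums were 406 to 554 units in Met fl/fl and 717 to 1454 in Egfr fl/fl. Flt1 alone gave 130 to 180 units in Met fl/fl and 485 to 1094 in Egfr fl/fl. The other markers together gave 258 to 390 units in Met fl/fl and 152 to 360 in Egfr fl/fl, so they did not share its drop. Of 8 erythroid markers with a probe 6 were detected on no array and 0 were tested, with sums from -17.3 to 36.0 units in Met fl/fl and -17.7 to 13.5 in Egfr fl/fl.

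No call of a tested plasma protein probe was lost when 1 array was left out. The detection filter still counted the omitted array, which kept Apoa1 in the test when a Met fl/fl array was left out. Over the alternatives that could test it, Trf stayed between 6.94-fold and 7.41-fold lower in Met fl/fl, and the 3 Hp probes between 6.59-fold and 17.3-fold lower. Hpx ranged from 7.15-fold to 11-fold lower on its bright probe and from 3.03-fold to 5.50-fold on its dim probe, with the smallest values at an offset of 50. The fitted log2 difference of Apoa1 ranged from 0.79, at an offset of 50, to 1.69. With array weights, which count noisy arrays less, Ttr differed by 0.078, the lowest of its range of 0.078 to 0.43, and it passed in none of 17 alternatives, with adjusted p from 0.0667 to 0.559.

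**Figure D4:**
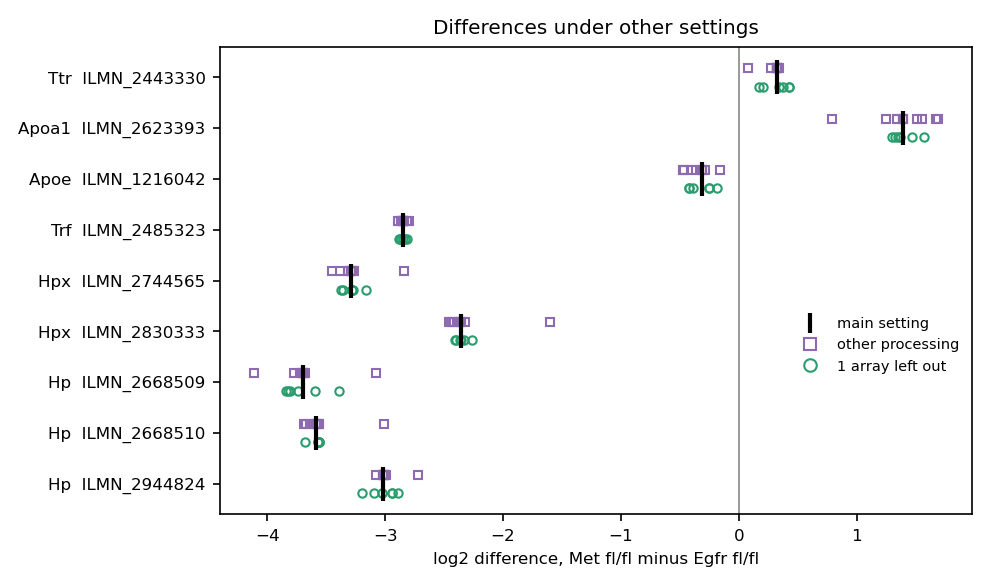
Log2 difference, Met fl/fl minus Egfr fl/fl, of each tested plasma protein probe under the main setting (black bar), other processing (purple squares) and with 1 array left out (green circles). No point changes sign, and the isolated squares to the right for Hpx and Hp and to the left for Apoa1 come from the offset of 50.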

How the data were processed

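Total RNA of 6 samples was labelled as biotin cRNA and read on Illumina arrays, per the labels' protocols, and processed with GenomeStudio 2011.1, per the submitters' processing notes. The array model was not stated. The deposited table held a background-subtracted intensity and a detection p-value per probe, per the file headers. The authors' matrix held normalized intensities, on a linear scale with near-equal medians of 7.51 to 7.57 units, used as an alternative. How they were normalized is not stated.

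Intensities were corrected by normexp, with the level of negative controls taken from detection p, offset by 16, quantile normalized and put on the log2 scale (limma 3.58.1, R 4.3.3). Probes detected on at least 3 of 6 arrays were fitted with lmFit and eBayes with a trend, with Benjamini-Hochberg adjustment over 11578 probes. The offset understates changes of dim probes, and quantile normalization removes differences in total RNA. Each sample is 1 array, and 3 arrays a group limit the precision. A gene in a list was represented by its brightest tested probe. Named genes were all member probes, up to 2 per list and direction with the largest difference past the threshold (the 1 largest where none passed), and the 2 nearest profiles of each tested member. The values of 1 gene that this rule names are not reported here. Symbols were updated through the RefSeq gene table (GRCm38.p6), 14307 of 18138 being current and 2906 updated. The members and lists were chosen with earlier results of these data known. The fit was also run on simulated arrays with independent scatter, which cannot tell how the replicates here arose. No 2 arrays held identical values.

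Alternatives covered background correction, normalization, offset, filter, blocking on the replicate number, variance trend, weighting of arrays, averaging over probes of 1 gene, and omission of each array in turn. Whether numbers shared by the labels pair the arrays could not be told. The correlation of deviations from group means was 0.24, -0.15 and 0.32 for replicates 1, 2 and 3. Between unlike numbers it ranged from -0.38 to 0.34.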

Additional observations from a re-analysis of the deposited data

How the results depend on the processing

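Directions and calls of the 9 tested plasma protein probes were the same under each of the 16 or 17 alternatives that could test them. Requiring a detection p under 0.01 on all 6 arrays removed Apoa1, Apoe and 1 probe each of Hpx and Hp, which left 0 member probes and 0 member genes higher and 4 probes of 3 genes lower in Met fl/fl (limma). The same filter left 36 genes called over all lists, against 57, because fewer genes were tested. Array weights raised the number of called probes to 6993, against 4613, and the cause was not tested. Median scaling gave 1439 probes higher and 1731 lower in Met fl/fl, against 2503 and 2110. With the replicate number as a block 5101 probes were called and the 6 lower and 1 higher member probes kept their calls. Whether the numbers pair the arrays could not be told. Leaving out 1 array gave 3327 to 5823 called probes, the most without Egfr fl/fl replicate 3, with 6 member probes lower and 1 higher each time. The 11578 tested probes stayed the same, because the detection filter still counted the array left out. Apoa1, detected on the 3 Met fl/fl arrays alone, stayed in the test by that rule when 1 of them was omitted. Without a filter, Alb differed by 0.13 and Afp by -0.16 on the log2 scale (limma adjusted p = 0.405 and 0.452). Signals near the detection limit bound what can be said of Alb, Afp, Apoe and, in Egfr fl/fl, Apoa1.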
